A study of Mus musculus with 16 samples.

Results

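The nuclear genes for the protein subunits of the 5 oxidative phosphorylation complexes were followed in subcutaneous grafts of MC38, a colon carcinoma line of the mouse. Members were chosen by symbol alone, as the genes named Ndufa, Ndufb, Ndufc, Ndufs, Ndufv, Uqcr, Cox4 to Cox8, Atp5 and Sdha to Sdhd, without assembly factors. This gave 85 of the 18480 entries. They comprised 38 genes of complex I, 4 of complex II, 8 of complex III, 18 of complex IV and 17 of complex V. The symbols placed Ndufa4 among the complex I names, but its protein is a subunit of complex IV, and it was counted there. The subunits encoded by mitochondrial DNA were not analysed here.

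The tumours fell into 4 groups of 4 libraries. Control tumours came from mice for which the labels name no intervention, and exercise tumours from mice that were exercised. Anti-PD-L1 tumours came from mice given an antibody against PD-L1, a ligand that restrains T cells. The tumours of the last group, called the combination, had both exercise and the antibody. The form of exercise, the antibody dose, the strain, sex and age of the mice, and the times were not given in the sources used here. The antibody is called by the target in the sample labels, PD-L1, although the title of the series has PD-1. Nothing in the labels says whether libraries of a group came from separate mice, so p-values measure the spread between these libraries, which may be technical. Values are FPKM, which divide the fragments of a gene by its transcript length and by the library's mapped fragments, so that levels can be set side by side between genes.

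Oxidative phosphorylation is carried out in the inner mitochondrial membrane. Complexes I and II take electrons from NADH and succinate, complex III passes them to cytochrome c, and complex IV hands them to oxygen. Complexes I, III and IV pump protons, and complex V, the ATP synthase, uses the return of those protons to make ATP. Complex IV also has subunits with alternative isoforms that differ between tissues, such as heart and skeletal muscle forms. The factor NRF1 and ETS factors of the GABP type are known to bind the promoters of many nuclear genes for these subunits.

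The sequence before the start of 4 members is shown because it holds, or lacks, the binding letters of NRF1, and because Ndufa4 had the smallest p of the members in the antibody comparison. Each is 150 bases long, 5′ to 3′ on the strand of the gene, from the RefSeq promoter table of GRCm38.p6, and ends at the base before the start. Capitals mark the run that holds GCGCATGCG, searched on both strands.
Ndufa4 (chr6:11907451-11907600, minus strand): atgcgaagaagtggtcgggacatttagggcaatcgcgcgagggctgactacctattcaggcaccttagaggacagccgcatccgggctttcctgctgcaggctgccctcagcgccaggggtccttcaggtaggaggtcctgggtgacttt
Ndufa11 (chr17:56717612-56717761, plus strand): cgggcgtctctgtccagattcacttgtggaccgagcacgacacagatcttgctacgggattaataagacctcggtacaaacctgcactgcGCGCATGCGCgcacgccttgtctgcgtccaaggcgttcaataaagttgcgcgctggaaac
Atp5g2 (chr15:102671048-102671197, minus strand): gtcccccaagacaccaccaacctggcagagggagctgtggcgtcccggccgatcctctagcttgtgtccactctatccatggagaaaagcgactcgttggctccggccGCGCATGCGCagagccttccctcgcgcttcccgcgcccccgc
Atp5k (chr5:108434400-108434549, minus strand): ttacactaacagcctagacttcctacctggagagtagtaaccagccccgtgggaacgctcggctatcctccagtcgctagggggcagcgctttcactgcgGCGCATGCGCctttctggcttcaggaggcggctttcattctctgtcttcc
In Ndufa11, a complex I subunit, the letters began at position -60 from the start. In Atp5g2, a subunit of the membrane ring of ATP synthase, they began at -42, and in Atp5k, its small e subunit, at -50. Because the run reads nearly the same on both strands, each also matched on the other strand 1 base away. The 300-base window of Ndufa4, of 250 bases before and 50 after the start, held neither these letters nor CCGGAAG, the ETS letters.

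The promoter table had 74 windows for 69 of the 85 members. GCGCATGCG stood in 8 of the 74 windows, or 10.8%, against 3.7% of the windows of all genes tested and 1.75% of all 32851 windows. The other members that held it were Atp5l, Cox6a1, Ndufa8, Uqcr11 and Uqcrc1. CCGGAAG stood in 21.6% of the member windows, in 17.9% of the windows of genes tested and in 8.86% of all. ACGTG or GCGTG, the core letters of the hypoxia factor HIF, stood in 63.5%, 61.6% and 43.8% of them. The 3 motifs share no whole copy of each other, and a match describes letters and not binding.

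Most members were abundant, and the median level differed by complex, while the levels of single members overlapped widely. Complex IV subunits and complex V subunits had median levels of 162.0 and 122 FPKM over the 16 libraries, complex III 78.4, complex II 63.3 and complex I 49.96. Isoforms and associated proteins were left out of these medians. Complex V subunits reached down to 33.1 FPKM (Atp5k), and complex I subunits up to 131. The highest member was Atp5b, the catalytic beta subunit of ATP synthase, at a mean of 417 FPKM, followed by Cox8a, a small complex IV subunit, at 356. Within complex II the iron-sulphur subunit Sdhb had the highest level, 89.6 FPKM, and the membrane anchor Sdhd the lowest, 37.8. In complex III, Uqcrfs1, the Rieske iron-sulphur protein, was lowest at 36.4 FPKM and Uqcrb highest at 119. Ndufa7 led complex I at 131 FPKM. At the other end stood the alternative isoforms of complex IV, from 0.126 FPKM for Cox8b to 6.83 for Ndufa4l2, and Ndufb4b at 0.0488. Ndufb4, Ndufb4b and Ndufb4c are near copies of each other, and Atp5g1, Atp5g2 and Atp5g3 encode the same mature protein. Reads could be split between such genes, but their sequences were not compared here.

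**Figure D1:**
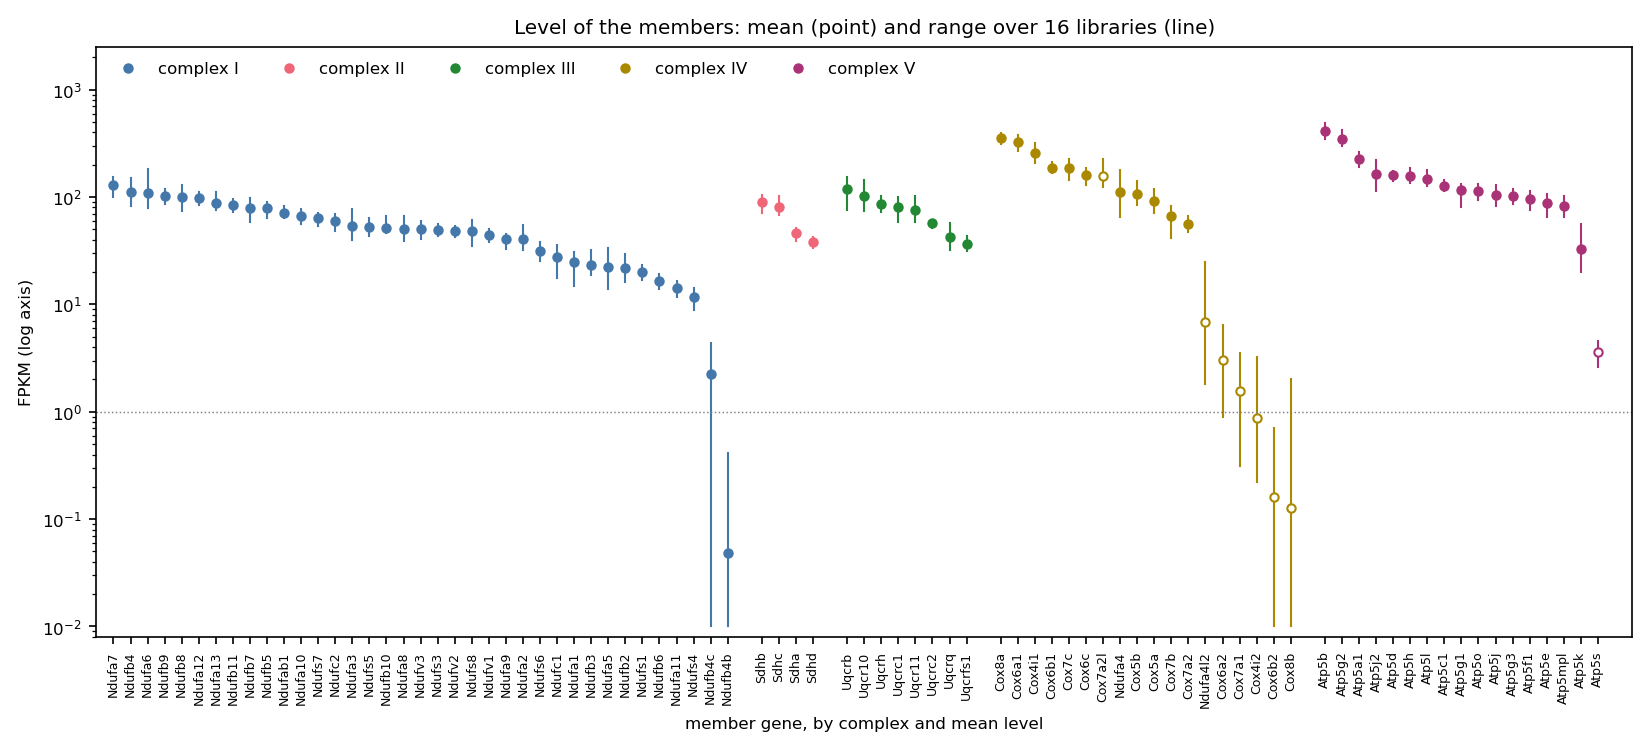
Mean FPKM of the members drawn (point) and their lowest and highest library (line), by complex, on a log axis; a line that reaches the bottom includes libraries listed at 0. Open points are isoforms or associated proteins, and the dotted line is 1 FPKM; most members lie between 10 and 500 FPKM, and the isoforms of complex IV lie below.

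A gene was tested if it reached 1 FPKM in at least 4 libraries. Of the 85 members 81 did, and Ndufb4b, Cox4i2, Cox6b2 and Cox8b did not. Members varied little between libraries of a group, with a median SD of 0.16 on the log2 scale. The median over the 11868 genes tested was 0.18, and over 3754 genes of similar level it was 0.16. Uqcrc2, a core protein of complex III, and Ndufv1, the NADH-binding subunit of complex I, varied least, with SDs of 0.06. Ndufa4l2 and Ndufb4c varied most, with SDs of 0.805 and 0.797.

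Summed over its members, each complex had control libraries that overlapped those of the other 3 groups. Complex I summed to 2098 ± 125 FPKM (SD, n = 4) in control, 2139 ± 116 in exercise, 1970 ± 74.9 in anti-PD-L1 and 2096 ± 97.1 in combination tumours. Complex V, the largest sum, was 2540 ± 236, 2580 ± 89.5, 2350 ± 46.8 and 2471 ± 69.0 in the same order. In both complexes the mean was lowest with the antibody alone, and in complex V the 4 exercise libraries all lay above the 4 anti-PD-L1 libraries. Complex II summed to 264 ± 14.3 FPKM in controls and 238 ± 21.1 with the antibody, complex III to 633 ± 77.7 and 566 ± 24.3, and complex IV to 2136 ± 231 and 1991 ± 54.1. All members together took 1.56% ± 0.124 of the FPKM of control libraries and 1.40% ± 0.0662 of those of anti-PD-L1 libraries. The shares were 1.56% ± 0.0677 in exercise and 1.47% ± 0.0592 in combination libraries.

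The spread among controls bears on each of these comparisons. Controls 1 and 2 had the highest sums of the control group in all 5 complexes. Control 1 or control 2 was the highest of the 16 libraries for 36 of the 81 members tested, or 44.4%, against 20.9% of all genes tested. At the other end, anti-PD-L1 4 was the lowest library for 26 members (32.1%, against 24.1% of all genes) and exercise 2 for 19 (23.5%, against 10.9%). Controls 1 and 2 also stood highest in their group for the marker lists of endothelial cells (139 and 281 FPKM in sum, against 76.6 and 73.6 in controls 3 and 4) and macrophages (1311 and 1905 against 390 and 766). Controls 1 and 2 were the highest of the 16 libraries for 9 of 12 endothelial genes and 12 of 15 macrophage genes. Of the 7 fat markers Fabp4 alone was high in both (32.9 and 122 FPKM). Cfd stood at 3.17 FPKM in control 2 and at 0.88 or less elsewhere. Adipoq, Plin1, Cidea, Lep and Ucp1 were under 1 FPKM in all libraries. In bulk tissue, fewer cells of a type and less RNA per cell cannot be told apart, and the part of these cells in the members' levels was not tested. Of the markers of the tumour epithelium, Epcam, Krt8, Krt18 and Vil1 were under 1 FPKM in all libraries, while Cdh1 lay between 1.24 and 3.05 FPKM. Krt19 was at 3.54 and 4.87 FPKM in controls 1 and 2 and at most 1.16 elsewhere, and Lgals4 was lowest in the same libraries, at 5.85 and 3.65 FPKM against 7.54 to 14.3.

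**Figure D2:**
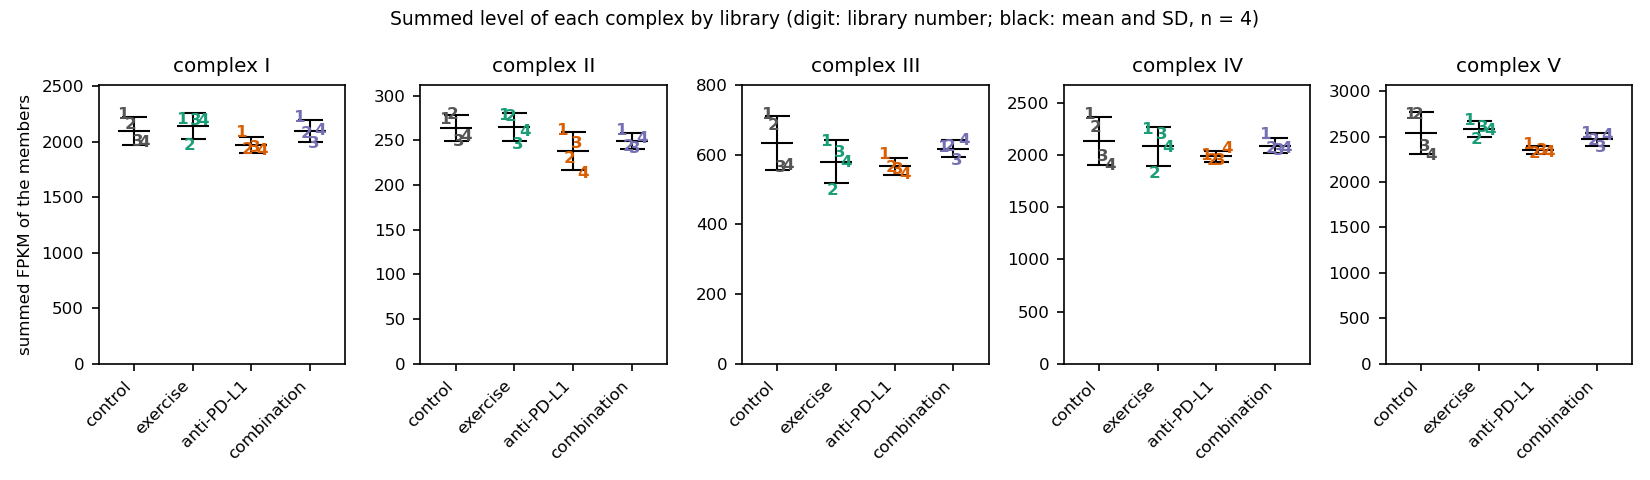
Summed FPKM of the members of each complex in each library (digits are library numbers), with mean and SD in black, n = 4 per group. Controls 1 and 2 lie above controls 3 and 4 in every complex, and no anti-PD-L1 library exceeds control 2.

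The first comparison asked how the members differed with the antibody alone. The differences leaned downward: 63 of the 81 members tested lay below control, with a median log2 difference of -0.11, while 57.7% of all genes tested lay below it, with a median of -0.04. At an unadjusted p under 0.05 in limma, 18 members were lower and 1 was higher, against a background of 15.7% of all genes lower and 7.77% higher. No member passed an adjusted p of 0.05 (limma, Benjamini-Hochberg), while 30 of the 11868 genes, or 0.253%, did. The medians by complex were -0.10 for complex I, -0.11 for II, -0.16 for III, -0.11 for IV and -0.15 for V. Without controls 1 and 2 the median was -0.01 over the members and -0.05 over all genes, so the members then lay no lower than all genes.

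Markers of macrophages and endothelial cells leaned in the same direction with the antibody, none of them past the adjusted threshold. The 2 T cell markers tested both lay above control, with a median log2 difference of 0.45, and neither passed. Of the 15 macrophage markers 14 lay below control, with a median of -1.22 and sums of 278 to 707 FPKM against 390 to 1905. Mrc1, a scavenger receptor of macrophages, had a log2 difference of -1.64 ± 0.52 and Csf1r, the receptor for their growth factor, -1.36 ± 0.44. All 11 endothelial markers tested lay below control, with a median of -0.63 and sums of 59.4 to 102 FPKM against 73.6 to 281. Both gaps rested largely on controls 1 and 2. The endothelial sums of controls 3 and 4, 76.6 and 73.6 FPKM, lay within the range of the antibody libraries. The macrophage sums of controls 3 and 4 were 390 and 766 FPKM, of which only the second lay above that range. The part of these cell types in the members' differences was not tested.

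For 5 members the anti-PD-L1 libraries all lay below all controls, and for no member did they all lie above, where 7.26% of all genes lay wholly below and 3.57% wholly above. They were Ndufa4 of complex IV, Ndufc2, Ndufa9 and Ndufs1 of complex I, and Atp5a1, the alpha subunit of ATP synthase.

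Ndufa4 (chromosome 6, 11900372 to 11907450) encodes a small subunit at the edge of complex IV. It measured 168, 179, 154 and 119 FPKM in controls 1 to 4 and 75.6, 82.1, 80.5 and 65.1 FPKM in the anti-PD-L1 libraries. The antibody libraries were thus all below the lowest control, at 0.496 times the control level on the log2(FPKM + 1) scale. In the combination it measured 73.8, 115, 130 and 102 FPKM, between the other groups and overlapping both. The log2 difference between anti-PD-L1 and control was -1.01 ± 0.22 (SE), and its adjusted p in limma was 0.0559 after Benjamini-Hochberg adjustment, just outside the threshold. It passed in 7 of 27 alternative analyses, with adjusted p between 0.00972 and 0.597 over all of them.

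AA467197, chosen after its values were seen, is not a member by the rule. It encodes a protein of the same family as Ndufa4 that can take its place in complex IV. It measured 27.6, 22.1, 21.7 and 27.4 FPKM in controls 1 to 4 and 85.5, 48.3, 28.7 and 50.3 FPKM in the anti-PD-L1 libraries. The groups did not overlap, in the direction opposite to Ndufa4. The log2 difference was 0.98 ± 0.31, with an adjusted p of 0.101 in limma. As a share of the summed FPKM of the pair, AA467197 made up 14.0% ± 3.35 in control, 20.0% ± 9.15 in exercise, 40.0% ± 11.3 in anti-PD-L1 and 28.5% ± 10.1 in combination tumours.

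Of the complex I genes, Ndufc2, a membrane arm subunit (chromosome 7, 97400003 to 97407800), had the smallest p. Its controls lay at 69.0, 69.4, 64.3 and 67.7 FPKM and its anti-PD-L1 libraries at 59.2, 51.0, 55.3 and 47.8. No antibody library reached the lowest control, and the log2 difference was -0.34 ± 0.09 with an adjusted p of 0.0714 (limma). Ndufa9 was at 44.9 ± 1.36 FPKM in controls against 37.6 ± 4.54 with the antibody. Ndufs1, the largest subunit of the peripheral arm, measured 22.0 ± 1.01 and 18.9 ± 1.45. Ndufb8 had 127, 129, 95.3 and 84.0 FPKM in controls and 90.8, 78.3, 85.0 and 74.1 in anti-PD-L1 libraries, so that its groups overlapped and the gap rested on controls 1 and 2. For Ndufb8 the adjusted p was 0.108 in limma.

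In complex II all 4 members lay below control. Sdhb, at 97.5 ± 7.49 FPKM in controls and 80.5 ± 7.69 with the antibody, had the smallest adjusted p of complex II, 0.107 in limma. The flavin subunit Sdha was at 48.0 ± 3.76 and 43.5 ± 3.34 FPKM. The pair of F1 subunits that form the catalytic head of ATP synthase were both lower: Atp5b was at 448 ± 44.0 and 379 ± 23.4 FPKM, and Atp5a1 at 237 ± 21.3 and 207 ± 12.1. Uqcrc1 of complex III was at 86.4 ± 12.7 and 70.3 ± 9.62. Cox7a2l, which joins complexes III and IV into supercomplexes, was the single member higher at an unadjusted p under 0.05. Its level was 139 ± 14.1 FPKM in controls and 178 ± 35.7 with the antibody, with overlapping libraries and an adjusted p of 0.129 in limma.

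**Figure D3:**
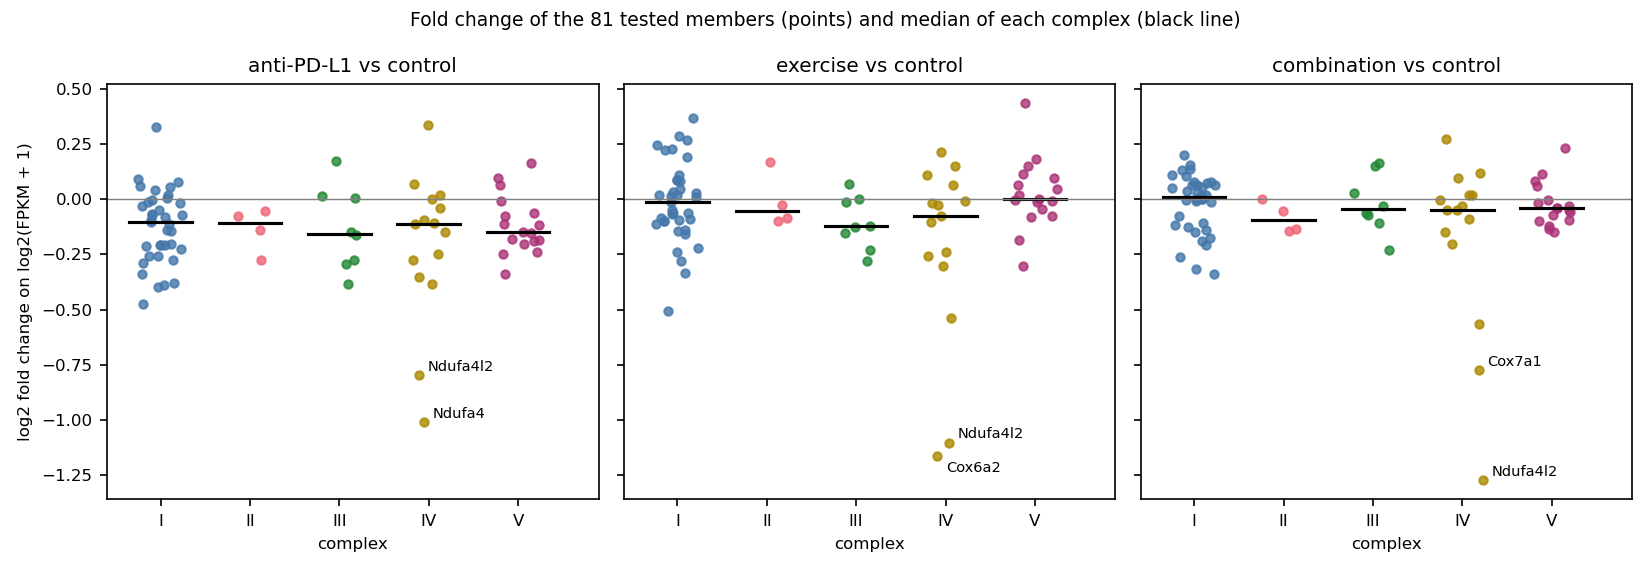
Log2 difference from control of the 81 members tested, on log2(FPKM + 1), by complex, for the 3 treated groups; black lines are medians. The comparisons share the control libraries. Most members lie within 0.5 of 0, and Ndufa4, Ndufa4l2, Cox6a2 and Cox7a1 lie lower in at least 1 panel.

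The calls with the antibody depended on single libraries. Without control 4, 5 members passed, all lower (Ndufa4, Ndufa5, Ndufc2, Ndufb8 and Atp5b), when 6.47% of all genes passed. With weights for library quality, 5 members passed as well, with Sdhb in the place of Atp5b, against 7.04% of all genes. Without exercise 1, which enters the fit through the shared spread, Ndufa4 and Ndufc2 passed, against 2.67% of all genes. The share of 5 in 81 members was near the background in the first pair of these fits.

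The next comparison asked how the members differed with exercise alone. The median log2 difference was -0.02 over the members and over all genes, with 48 of 81 members and 53.8% of all genes below control. No member passed the adjusted threshold in limma, and 0% of all genes did. At an unadjusted p under 0.05, 6 members were higher and 7 lower, where the background was 8.03% of all genes higher and 9.93% lower. All 6 higher members belonged to complex I, among them Ndufb4, Ndufb10, Ndufa10, Ndufb3 and Ndufa13. The 7 lower ones were Cox6a2, Ndufa5, Ndufb5, Atp5f1, Ndufs1, Ndufa4 and Ndufb2. Subunits of one complex thus lay on both sides.

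Ndufb4, a membrane arm subunit of complex I (chromosome 16, 37647602 to 37654368), measured 116, 125, 151 and 148 FPKM in the exercise libraries and 105, 103, 94.6 and 112 in controls. All 4 exercise libraries were above the highest control. The log2 difference was 0.37 ± 0.12, with an adjusted p of 0.188 in limma. Ndufa10 and Ndufv1 also lay wholly above control, at 74.4 ± 2.12 against 63.9 ± 7.17 FPKM and at 47.0 ± 2.04 against 44.3 ± 1.96. For Ndufv1 the gap was slight, with the lowest exercise library at 45.65 FPKM and the highest control at 45.59. Wholly higher libraries were found for 4.21% of all genes, and wholly lower ones for 3.51%. Ndufb10 overlapped narrowly: its exercise libraries were at 49.4, 48.9, 64.9 and 66.2 FPKM and its controls between 45.9 and 49.0.

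Cox6a2, the heart and skeletal muscle form of a complex IV subunit (chromosome 7, 128205435 to 128206366), was the single member wholly below control. It measured 3.53, 6.47, 4.60 and 2.46 FPKM in controls and 1.28, 0.95, 2.08 and 0.90 in exercise libraries. Every exercise library was under the lowest control. The log2 difference was -1.16 ± 0.27, with an adjusted p of 0.181 in limma. In anti-PD-L1 and combination tumours it stood at 3.13 ± 1.34 and 3.50 ± 1.20 FPKM, near control. Most of the summed skeletal muscle marker list came from Eno3, a muscle enolase, outside control 2. Without Eno3 the list summed to 11.9, 6.31, 19.7 and 7.71 FPKM in exercise libraries, within the 5.22 to 15.3 of controls 1, 3 and 4 in all but exercise 3, and to 428 in control 2. Eno3 itself was at 36.9, 31.4, 24.5 and 20.3 FPKM in exercise libraries and between 37.3 and 45.3 in controls. Its part in the Cox6a2 difference was not tested.

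Exercise 1 stood apart from the other exercise libraries and near the controls in most of the lower members. Ndufa4 was at 177 FPKM in exercise 1 and at 87.0, 93.2 and 85.8 in exercise 2 to 4. Ndufb2 was at 29.8 against 18.6, 16.2 and 17.9, with controls between 22.0 and 29.7. Atp5f1, a stator subunit of ATP synthase, was at 107 against 75.2, 78.0 and 84.1, with controls between 95.2 and 112. In these 3 genes exercise 2 to 4 lay under every control, and exercise 1 within or next to the control range.

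Ndufb5 showed the same order, with 80.9 FPKM in exercise 1, 63.8, 70.2 and 69.0 in exercise 2 to 4, and controls between 79.8 and 90.7. Without exercise 1, 7 members passed the adjusted threshold, all lower: Ndufa4, Ndufa5, Ndufb2, Ndufb5, Ndufs1, Atp5f1 and Cox6a2. In that fit 5.15% of all genes passed, against 7 of 81 members. With library weights 13 members passed, 11 lower and 2 higher (Ndufb4 and Ndufb10), against 19.2% of all genes. Exercise 1 also had the lowest sum of the hypoxia genes of the 16 libraries, 1412 FPKM against 1817 to 2697 in exercise 2 to 4, whose part in the difference was not tested. Without controls 1 and 2, the median over the members turned to 0.07, and that over all genes was 0.00.

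**Figure D4:**
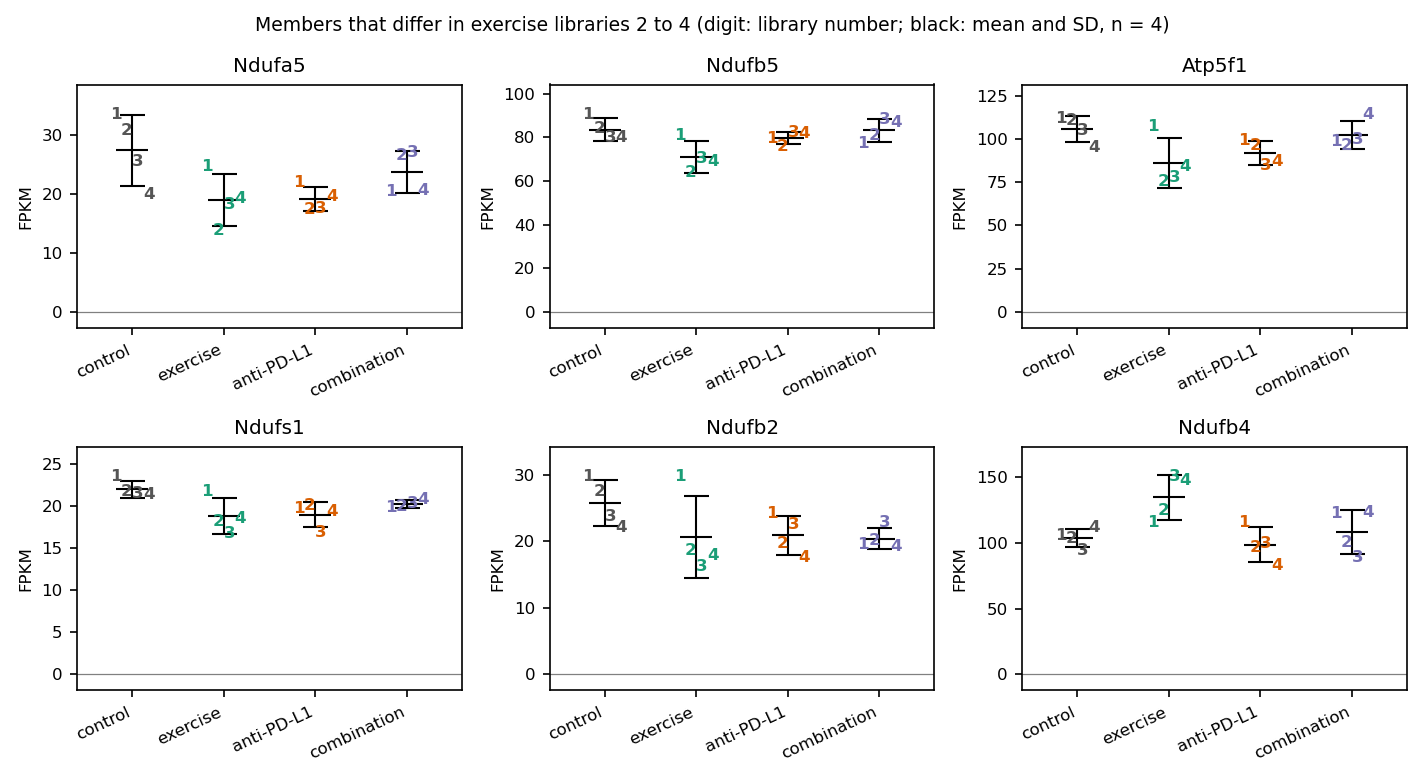
FPKM of 6 members in each library (digits are library numbers), with mean and SD in black, n = 4 per group. Exercise 1 lies near the controls for Ndufb2, Ndufb5 and Atp5f1 while exercise 2 to 4 lie lower; Ndufb4 is higher in all 4 exercise libraries than in any control.

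Few members differed between the combination and control. The median log2 difference was -0.01, with 46 of 81 members and 58.1% of all genes below control. No member and 0% of all genes passed the adjusted threshold. At an unadjusted p under 0.05, 1 member was higher and 6 were lower, against 3.01% and 5.19% of all genes. The lower ones were Ndufc2, Ndufa9, Ndufa3, Ndufa4, Cox7a1 and Ndufa4l2, and the higher one was Cox7a2l. Ndufc2 measured 53.7, 52.3, 54.6 and 65.0 FPKM in the combination, so that 3 of 4 libraries lay below every control. Cox7a2l measured 168 ± 16.3 FPKM. Without controls 1 and 2 the median over the members turned to 0.06, and that over all genes was -0.03. These 3 comparisons share the control libraries, so their directions are not independent of each other.

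Against the antibody alone, the combination leaned upward. Of 81 members 68 lay above anti-PD-L1, with a median log2 difference of 0.09. Of the 11868 genes tested 6550 did, with a median of 0.02. No member and 0% of all genes passed, and the lowest adjusted p of a member was 0.968 in limma. At an unadjusted p under 0.05, 2 members were higher and none lower, against 2.25% and 1.69% of all genes. They were Ndufv1, at 44.6 ± 2.10 FPKM in the combination and 40.0 ± 1.67 with the antibody alone, and Ndufs4, an accessory subunit of the peripheral arm, at 12.7 ± 1.79 and 10.3 ± 1.75. In complex I, 34 of 37 members lay above. This comparison and that of the antibody with control share the anti-PD-L1 libraries, so their directions are not independent of each other.

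Against exercise alone the combination showed no common direction, with 37 members above, 44 below and a median of -0.02. Again 0% of all genes passed. At an unadjusted p under 0.05, 3 members were higher (Cox6a2, Ndufb5 and Atp5f1) and 1 was lower (Ndufb4), against 6.7% and 6.93% of all genes. The largest difference was that of Cox6a2, 0.96 ± 0.27, with an adjusted p of 0.207 in limma. Its lowest combination library, at 2.64 FPKM, was above the highest exercise library, at 2.08. Ndufb5 measured 83.2 ± 5.11 FPKM in the combination and 71.0 ± 7.20 in exercise tumours.

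The interaction asks whether the antibody's difference in exercised mice departs from its difference in the others. Its median over the members was 0.09, against 0.03 over all genes, with 58 of 81 members and 6511 of the 11868 genes above 0. No member and 0% of all genes passed the adjusted threshold. At an unadjusted p under 0.05, 11 members were positive and none negative, against 7.99% and 5.11% of all genes. Cox6a2 had the smallest p (1.31 ± 0.38), followed by Ndufa5 (0.79 ± 0.24), Ndufa4 (0.98 ± 0.31) and Atp5f1 (0.46 ± 0.15); in limma the adjusted p was 0.364 for all 4. Without exercise 1, Ndufa4 and Atp5f1 passed, at 1.23 ± 0.23 and 0.57 ± 0.12, against 1.88% of all genes. Without controls 1 and 2 the median over the members was 0.00, against 0.02 over all genes.

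The alternative isoforms of complex IV were set against their common forms. Cox4i2, a form of subunit 4 known from lung and vessels, made up 0.609% ± 0.501 of the pair with Cox4i1 in control tumours and 0.232% to 0.263% on average in the other groups. It measured 2.02 and 3.23 FPKM in controls 1 and 2, and between 0.22 and 1.21 in the remaining 14 libraries. Cox6a2 made up 1.23% ± 0.408 of the pair with Cox6a1 in control, 0.387% ± 0.147 in exercise, 1.03% ± 0.437 in anti-PD-L1 and 1.02% ± 0.253 in combination tumours. Cox7a1, a muscle form, made up 3.74% ± 1.68 of the pair with Cox7a2 in control, 2.98% ± 0.446 in exercise, 2.44% ± 0.866 in anti-PD-L1 and 1.62% ± 1.49 in combination tumours. It measured 3.09 and 3.53 FPKM in controls 1 and 2 and 0.95 and 1.57 in controls 3 and 4. The log2 difference of Cox7a1 between combination and control was -0.78 ± 0.30, and -0.31 without controls 1 and 2. The common forms supplied most of each of these pairs in every library, and Cox7a1 reached 5.71% of its pair in control 2. Ndufa4l2 made up more of its pair with Ndufa4, at 12.5% and 12.2% in controls 1 and 2 and at most 8.80% elsewhere.

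Ndufa4l2, a relative of Ndufa4 known as a target of hypoxia factors (chromosome 10, 127509274 to 127517154), measured 23.9 and 24.9 FPKM in controls 1 and 2 and 4.68 and 2.79 in controls 3 and 4. The 12 treated libraries lay between 1.82 and 7.77. Its mean difference from control was therefore that of 2 libraries, and the log2 difference with exercise, -1.10 ± 0.52, turned to 0.12 without them. Of 9 pericyte genes, chosen after values were seen, 4 were highest of the 16 libraries in controls 1 and 2 (Rgs5, Abcc9, Mcam and Notch3), while Pdgfrb was lowest there. Rgs5 was at 15.2 and 32.4 FPKM against 0.69 to 6.19 elsewhere, and Pdgfrb at 23.1 and 25.5 FPKM against 30.1 to 56.8; their part in the Ndufa4l2 levels was not tested. Cox8b, a muscle and brown fat form, was listed at 0 in 15 libraries and at 2.02 FPKM in control 2. In that library the skeletal muscle gene Acta1 stood at 170 FPKM, against 0.17 to 5.29 in the others.

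**Figure D5:**
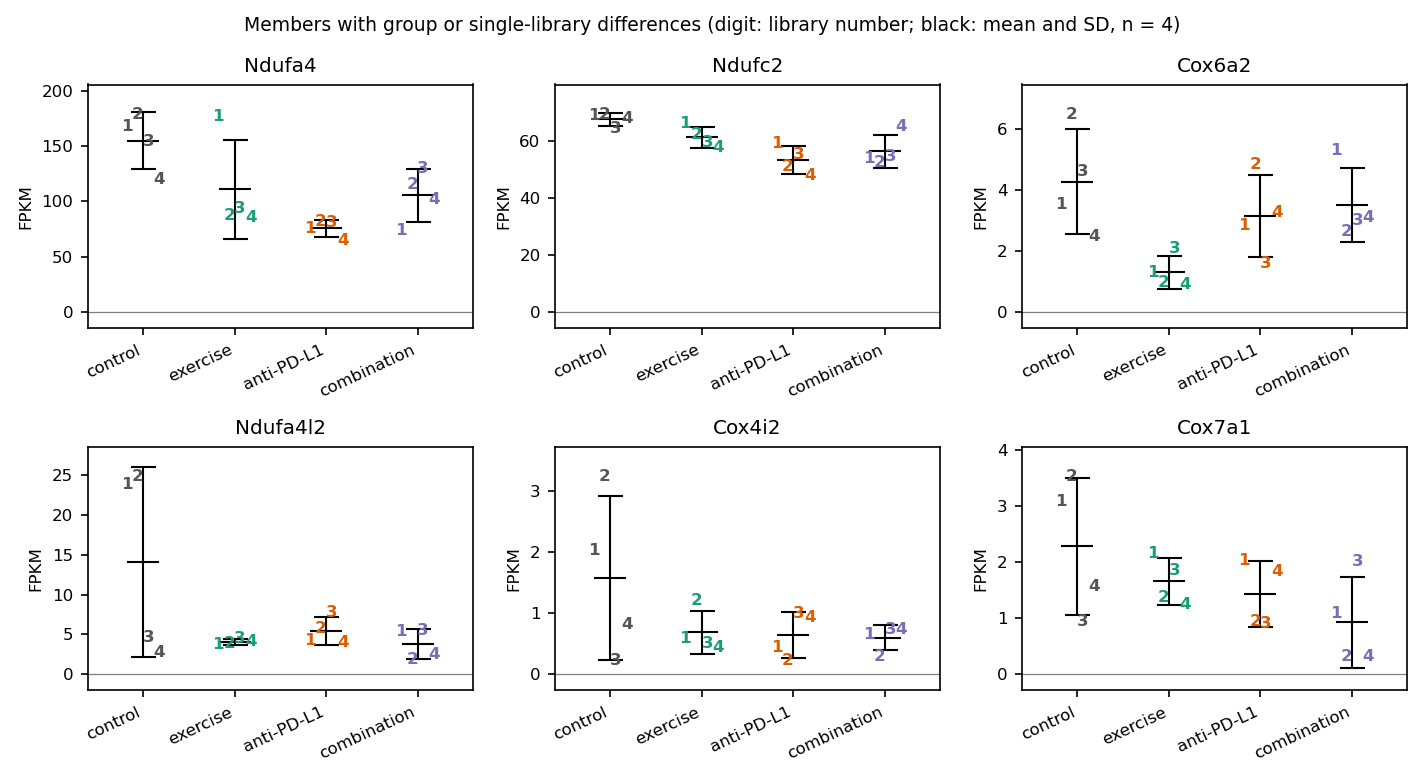
FPKM of 6 members in each library (digits are library numbers), with mean and SD in black, n = 4 per group. Ndufa4 and Ndufc2 are lower in the 4 anti-PD-L1 libraries than in any control, Cox6a2 is lower in the 4 exercise libraries, and Ndufa4l2, Cox4i2 and Cox7a1 are highest in controls 1 and 2.

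Genes that serve the complexes but are not members by the symbol rule gave the following counts. None of them passed an adjusted p of 0.05 in any of the 6 comparisons. The 47 assembly factors tested had a median log2 difference of 0.00 with the antibody and -0.04 with exercise, with 23 and 26 of them below control. Surf1, an assembly factor of complex IV, had the smallest p of them with the antibody, at 23.8 ± 2.48 FPKM against 18.0 ± 1.91 in control and an adjusted p of 0.0714 in limma. The 16 genes of the TCA cycle, which makes the NADH and succinate that the chain oxidises, had medians of -0.16 with the antibody and -0.12 with exercise, with 14 and 15 below control. Complex II is itself an enzyme of that cycle. Idh3a, a subunit of isocitrate dehydrogenase, was at 30.9 ± 1.89 FPKM in controls and 22.1 ± 4.66 with exercise (adjusted p of 0.181 in limma).

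Of 13 cytochromes and carriers, 11 lay below control with the antibody, with a median of -0.14, and 10 with exercise, with the same median. The list includes Cyc1, cytochrome c1, a subunit of complex III whose symbol the rule does not cover. Cycs, somatic cytochrome c, measured 40.5, 32.6, 39.5 and 28.6 FPKM in controls and 28.9, 18.5, 19.6 and 18.2 in exercise libraries. Exercise 1 alone overlapped the controls, and the log2 difference was -0.71 ± 0.19 with an adjusted p of 0.181 in limma. Slc25a5, an exchanger of ADP and ATP, was at 241 ± 41.5 FPKM in controls and 171 ± 14.8 with the antibody (adjusted p of 0.0878 in limma). The 14 genes of mitochondrial biogenesis that were tested had medians of -0.14 with the antibody and -0.10 with exercise, with 12 and 10 below control. The 16 hypoxia genes all lay above control with the antibody, with a median of 0.67, and their sums ranged from 2142 to 3744 FPKM against 1906 to 2068. The part of hypoxia in the members' levels was not tested.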

How the data were processed

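RNA of subcutaneous tumours was measured by RNA sequencing in 16 libraries. The authors deposited FPKM values with 2 decimals, per the file headers. Per the submitters' processing notes, the tools included HISAT and Bowtie2 and the build was GRCm38.p6, and total RNA was extracted with Trizol, per the labels' protocols. The program that gave the FPKM, the library kit and the depth were not given in the sources used here, so counting error is unknown. Per library the FPKM sum lay between 478672 and 529732, and correlations between libraries lay between 0.933 and 0.99.

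Coordinates and promoters came from RefSeq tables of GRCm38.p6, in which 83 members matched by symbol and 85 with synonyms. Genes that reached 1 FPKM in 4 or more libraries were fitted as log2(FPKM + 1), which understates changes of low genes, in 1 limma model (limma 3.58.1, R 4.3.3, trend and robust settings) with the 4 groups. Benjamini-Hochberg adjustment ran over 11868 genes in each of 6 comparisons, at 0.05. The model was tested on simulated data.

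The members and lists were chosen with earlier results of these data known; the pericyte genes were chosen after values were seen. Named were the 5 members with the smallest p in each comparison, the highest and lowest of each complex, a panel, and up to 3 genes of each other list; any further gene in the text was chosen once its values were known, and 1 member is not reported here by name. The alternatives, 27 per comparison, changed the pseudocount (0.1 and 0.01), the filter, the scaling, the limma settings, library weights or the groups fitted, added a replicate block, or left out libraries. Leaving out controls 1 and 2 together was chosen after seeing the data.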

Additional observations from a re-analysis of the deposited data

Results flagged for a closer look

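Sets of 4 libraries were searched, each for a complex sum or 1 of the 38 members picked by the naming rule, in 1 group. In 15 of 167 sets the highest or lowest library lay far from the other 3. In 3 of these 15 sets the other libraries were all listed at 0, which alone sets them apart. For the remaining 12, chance gives about 1 in 20 of the sets, but many members were picked for a small p or an extreme level. The remaining members were not searched. Among them, Ndufa6 stood at 182.86 FPKM in anti-PD-L1 4 against 105.12 to 110.71 in the other anti-PD-L1 libraries. In the exercise group, Ndufa4 stood at 177.19 FPKM in exercise 1 against 85.82 to 93.2 in the others. Exercise 1 was also highest for Ndufv1, at 50.07 FPKM against 45.65 to 46.35. Exercise 2 was lowest for Uqcrb (76.35 against 112.2 to 119.46), for Ndufs5 (46.24 against 51.29 to 52.18) and for the complex I sum (1965.09 against 2191.48 to 2205.02).

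Among controls, Ndufs1 was high in control 1 (23.47 against 21.33 to 21.65) and Ndufa9 was low in it (42.85 against 45.45 to 45.77). Cox8b stood at 2.02 in control 2 and was listed at 0 in the others. Control 4 was low for Ndufv1 (41.41 against 45.05 to 45.59), and Ndufb4b stood there at 0.37 with the others listed at 0.

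In anti-PD-L1 tumours, library 4 was lowest for Cox6a1 (284.62 against 305.5 to 309.59) and for Ndufa7 (99.22 against 129.09 to 134.2). In the combination, Ndufb4b stood at 0.41 in library 3 with the others at 0, Uqcrfs1 was low in library 4 (32.98 against 36.69 to 37.08), and the complex IV sum was high in library 1 (2194.95 against 2046.78 to 2068.62).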

How the results depend on the processing

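No member passed an adjusted p of 0.05 (limma, Benjamini-Hochberg) in any comparison as reported. With the antibody, 1 of 81 members passed under quantile normalization, 1 with only the groups compared and 5 with library weights. The shares of all genes that passed were 0.986%, 0.354% and 7.04%. Between 0 and 5 members passed when each library was left out in turn, with 6.47% of all genes passing where it was 5. With exercise, 13 members passed with library weights, against 19.2% of all genes. Between 0 and 7 did when each library was left out, against 5.15% of all genes where it was 7. For the interaction the leave-one-out counts were 0 to 2, against 1.88% of all genes at 2. The remaining comparisons gave 0 members under each alternative. Ndufa4l2 with exercise reversed to 0.12 without controls 1 and 2. The median over the members with the antibody was -0.07 with libraries centred on their medians and -0.08 with quantile normalization. With exercise, centring turned it to 0.00, and for the combination against control it turned to 0.02.

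A replicate block gave 0 members in each comparison and left the median with the antibody at -0.11. Pairing by replicate number was not seen in the deviations of libraries from their group mean. Of 24 pairs with the same number, 6 had deviations that correlated over 0.1, with a range of -0.62 to 0.344. Of 72 pairs with different numbers 28 did, with a range of -0.39 to 0.442. Deviations from a mean of 4 libraries are noisy, so these values cannot exclude pairing. With 4 libraries per group and unknown depth, small differences in low genes such as Cox4i2 and Cox8b were not detectable.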

Other observations

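The 3 genes for the c ring of ATP synthase encode the same mature protein. Atp5g2 supplied 59.1% ± 1.61 (SD, n = 4) of their summed FPKM in control, 61.5% ± 1.69 in exercise, 64.1% ± 5.75 in anti-PD-L1 and 61.3% ± 1.88 in combination tumours. Its share reached 66.0% and 71.4% in anti-PD-L1 libraries 3 and 4, the highest of the 16, where Atp5g1 made up 18.5% and 13.8%. The remaining anti-PD-L1 libraries lay within the range of the other groups. How reads were split between these genes was not tested, nor were the differences. Atp5k ranged from 20.0 to 55.6 FPKM over the libraries, with 55.6 and 54.4 in exercise 3 and 4 and 26.5 in exercise 2.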
